A study of Mus musculus with 6 samples.

Results

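The 10 genes described here, Nqo1, Adh7, Cbr3, Ptgr1, Gclc, Gclm, Hmox1, Txnrd1, Srxn1 and Slc7a11, are known targets of the transcription factor NRF2 that do not belong to the glutathione S-transferase family. They were chosen by name, from a list drawn up with earlier results of the same 6 libraries in view, in which Adh7 was among the leading genes of a basal-like cluster. Fold changes and p-values of these genes are therefore given as a description, and no p-value below is independent evidence that they differ as a group. They are 10 of the 32285 genes measured, and all 10 were among the 11645 genes that passed the filter on low values over all cells.

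The cells came from organoids of mouse esophageal epithelium, strain C57BL6, dissociated after 15 days of culture in Matrigel. The organoids were founded by epithelial cells sorted as integrin-b1 positive, DAPI negative and either low or high for Cyto-ID, a dye that stains autophagic vesicles, so Cyto-ID Low and Cyto-ID High name the founders and not the state of the cells sequenced. Each group had 3 libraries, labelled F2, M3 and F6, and the Low and High libraries that share a label are called a pair. The culture medium of both groups held 0.1 mM N-acetyl-L-cysteine, a thiol antioxidant and source of cysteine, together with N2 and B27 supplements, human EGF, medium conditioned with Noggin and R-Spondin, and the ROCK inhibitor Y27632. The labels do not say whether replicates came from separate animals, so p-values measure only the spread between these libraries.

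NRF2, encoded by Nfe2l2, is held at a low level by KEAP1, which hands it to a CUL3 ubiquitin ligase. Oxidants and electrophiles modify KEAP1, NRF2 then accumulates, pairs with a small MAF protein and activates genes that carry antioxidant response elements, while BACH1 represses some of the same genes, Hmox1 among them. In the esophagus this pathway is known for its tie to the squamous layers, since mice without KEAP1 develop a thickened, keratinised esophageal and forestomach epithelium.

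Levels are counts of unique molecular identifiers (UMIs, 1 per captured RNA molecule) scaled to the usual CPM, the counts a cell would hold at a total of 1000000, averaged over the cells of a library. The method reads transcript ends and is not scaled by length, so levels are compared between libraries and classes for a gene and not between genes. The 25154 of 26808 barcodes that had at least 500 detected genes were used. Libraries held 8457489 to 48957523 UMIs, with a median per kept cell from 1940.5 to 10038, and no 2 libraries shared more than 8 barcodes. All 10 basal markers, such as Krt5 and Krt14, were detected in every library. Ptprc and Tyrobp, which define leukocytes, were at 0 in all 6, and the summed level of 6 immune markers was at most 0.196 CPM, that of 6 fibroblast markers at most 4.95 CPM, that of 3 endothelial markers at most 0.854 CPM and that of 3 smooth muscle markers 4.49 to 14.3 CPM. Clusters were named from marker lists, with the 10 genes and related genes left out of the clustering. Of the kept cells, 10.9%, 20.5% and 13.9% in Low and 10.7%, 13.8% and 11.4% in High (F2, M3 and F6) stayed in unnamed clusters.

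The promoters of the members on which the results turn are shown because NRF2 targets are known by a control sequence they share. They are the bases before the gene start given with each gene below, 5′ to 3′ on the strand of the gene, from RefSeq on GRCm38.p6, in which 8 of the 10 members had an entry. Distances are counted to the RefSeq start, which can lie some bases after the end of the printed sequence, as in Adh7 and Srxn1. Capitals mark the letters TGACNNNGC, the core of an antioxidant response element, or TGANTCA, the letters bound by AP-1 factors, on either strand. The 2 motifs can overlap, and a match of TGANTCA reads on both strands.
Adh7, chr3:138217523-138217759, plus strand: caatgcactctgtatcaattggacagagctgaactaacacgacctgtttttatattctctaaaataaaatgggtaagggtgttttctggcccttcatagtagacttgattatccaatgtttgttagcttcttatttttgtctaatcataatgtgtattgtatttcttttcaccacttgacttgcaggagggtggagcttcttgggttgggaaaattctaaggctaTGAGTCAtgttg
Cbr3, chr16:93682969-93683214, plus strand: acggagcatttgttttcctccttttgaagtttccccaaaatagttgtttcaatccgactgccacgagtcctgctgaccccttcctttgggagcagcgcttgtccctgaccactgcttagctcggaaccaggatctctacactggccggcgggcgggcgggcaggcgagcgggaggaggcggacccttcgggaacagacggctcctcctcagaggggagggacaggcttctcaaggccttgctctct
Ptgr1, chr4:58987120-58987328, minus strand: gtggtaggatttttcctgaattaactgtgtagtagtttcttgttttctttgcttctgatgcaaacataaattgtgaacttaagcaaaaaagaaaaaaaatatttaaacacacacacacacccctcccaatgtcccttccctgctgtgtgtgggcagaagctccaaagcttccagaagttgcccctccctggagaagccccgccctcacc
Nqo1, chr8:107403207-107403455, minus strand: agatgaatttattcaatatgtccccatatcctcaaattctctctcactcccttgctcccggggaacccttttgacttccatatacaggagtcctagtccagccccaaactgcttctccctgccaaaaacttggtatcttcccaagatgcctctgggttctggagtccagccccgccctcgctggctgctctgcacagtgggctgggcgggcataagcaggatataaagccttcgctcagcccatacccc
Gclm, chr3:122245307-122245556, plus strand: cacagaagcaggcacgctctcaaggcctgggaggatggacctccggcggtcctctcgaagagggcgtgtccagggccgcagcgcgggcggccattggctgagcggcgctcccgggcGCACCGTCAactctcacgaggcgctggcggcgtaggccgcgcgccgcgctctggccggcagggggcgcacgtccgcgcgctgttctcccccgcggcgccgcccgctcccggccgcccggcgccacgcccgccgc
Srxn1, chr2:152105274-152105515, plus strand: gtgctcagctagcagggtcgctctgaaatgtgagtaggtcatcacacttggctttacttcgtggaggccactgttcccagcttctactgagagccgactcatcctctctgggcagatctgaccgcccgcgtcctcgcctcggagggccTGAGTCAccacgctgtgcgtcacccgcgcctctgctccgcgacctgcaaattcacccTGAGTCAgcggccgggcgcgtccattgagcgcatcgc

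In 300-base windows around the start, TGACNNNGC stood in 3 of the 10 windows of the 8 members, against 12.4% of 32817 windows of that length. All 3 matches lie on the strand opposite to the gene, and each distance is that of the most upstream base of the match. They were in Gclm, with TGACGGTGC 134 bases before the RefSeq start, in Srxn1, with TGACCTAGC 28 bases after it, and in Txnrd1, with TGACAAAGC 92 bases before 1 of its 3 RefSeq starts. TGANTCA stood in 2 of the 10 windows, against 7.81% of all windows. It was found in Adh7, as TGAGTCA 25 bases before the RefSeq start, and in Srxn1, as TGAGTCA 102 and 45 bases before it. Neither set of letters was found in the windows of Nqo1, Cbr3, Ptgr1 or Slc7a11. A match is a description of these letters only, and known elements of these genes can lie outside such windows.

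The 4 members that act on carbonyls, quinones and alcohols had higher mean levels in Cyto-ID High over all cells. Adh7, on chromosome 3 (138217760 to 138233382, plus strand of GRCm38), encodes a class IV alcohol dehydrogenase that oxidises retinol and ethanol in the upper digestive tract. In the order F2, M3 and F6 it was at 7.38, 12.2 and 1.22 CPM in Low and at 55.2, 63.5 and 16.1 CPM in High. Every High library was above every Low library, and the label F6 had the lowest level in both groups. The means were 6.94 ± 5.52 and 44.9 ± 25.3 CPM (SD, n = 3), a 6.47-fold ratio.

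Ptgr1, on chromosome 4 (58965439 to 58987119, minus strand), encodes prostaglandin reductase 1, which reduces reactive alkenals. It was at 65.5, 116 and 61.7 CPM in Low and at 153, 271 and 134 CPM in High, with means of 81.0 ± 30.2 and 186 ± 74.2 CPM (SD, n = 3; 2.30-fold). Cbr3, on chromosome 16 (93683215 to 93690990, plus strand), encodes a carbonyl reductase. Its levels were 21.5, 37.8 and 17.2 CPM in Low and 52.5, 90.3 and 41.7 CPM in High (means 25.5 ± 10.9 and 61.5 ± 25.5 CPM, SD, n = 3; 2.41-fold). For both genes M3 was the highest label and F6 the lowest in each group, and the groups did not overlap.

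Nqo1, on chromosome 8 (107388225 to 107403206, minus strand), encodes the quinone reductase most used as a readout of NRF2. Its levels were 22.2, 34.9 and 20.9 CPM in Low and 43.6, 54.0 and 61.0 CPM in High, with means of 26.0 ± 7.75 and 52.9 ± 8.74 CPM (SD, n = 3; 2.04-fold). The groups did not overlap, but the order of the labels differed from that of the other 3 genes, with F6 highest in High.

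The genes of glutathione and cystine supply had smaller or less even differences. Gclm, on chromosome 3 (122245557 to 122270732, plus strand), encodes the modifier subunit of glutamate-cysteine ligase, the first enzyme of glutathione synthesis. It was at 253, 473 and 199 CPM in Low and at 301, 496 and 257 CPM in High (means 308 ± 145 and 352 ± 127 CPM, SD, n = 3). The spread between labels was larger than the difference within any pair. Gclc, on chromosome 9 (77754535 to 77794485, plus strand), encodes the catalytic subunit of the same enzyme and was at 10.0, 19.9 and 9.16 CPM in Low and at 17.5, 16.8 and 18.4 CPM in High. It was higher in High in pairs F2 and F6 and lower in pair M3.

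Slc7a11, on chromosome 3 (49892526 to 50443614, minus strand), encodes the transport subunit of the cystine and glutamate exchanger, which brings in cystine for glutathione. Its levels were 10.3, 23.5 and 7.28 CPM in Low and 18.1, 19.2 and 31.6 CPM in High, so the groups overlapped. The log2 difference within pairs, on values scaled between libraries, was 0.74 in F2, -0.07 in M3 and 2.04 in F6, and most of the mean difference lay in pair F6.

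The members that act on heme, thioredoxin and peroxiredoxins did not separate the groups. Hmox1, on chromosome 8 (75093621 to 75100589, plus strand), encodes heme oxygenase 1, which breaks down heme, and was at 33.2, 24.7 and 16.7 CPM in Low and at 31.6, 30.4 and 20.7 CPM in High. Srxn1, on chromosome 2 (152105516 to 152111376, plus strand), encodes sulfiredoxin, which restores overoxidised peroxiredoxins, and was at 19.0, 18.5 and 13.2 CPM in Low and at 19.2, 21.2 and 14.6 CPM in High. The High minus Low differences of both genes were smaller than the spread within a group. Txnrd1, on chromosome 10 (82833951 to 82897712, plus strand), encodes the cytosolic thioredoxin reductase. It was at 62.4, 39.3 and 53.9 CPM in Low and at 46.2, 41.1 and 28.6 CPM in High, and was the member with a lower mean in High (51.9 ± 11.7 against 38.6 ± 9.03 CPM, SD, n = 3).

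**Figure D1:**
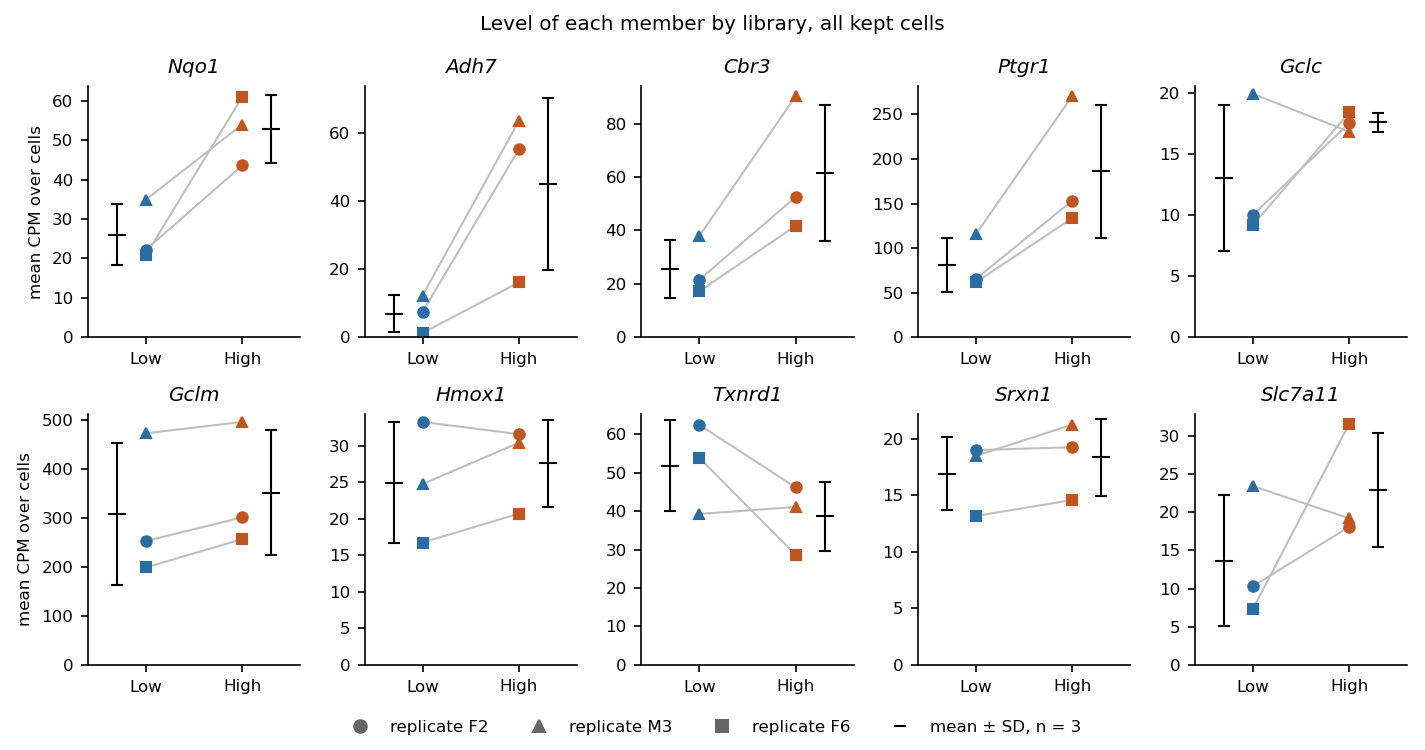
Level of each member over all cells (CPM, linear axes from 0) in every library, with Cyto-ID Low in blue and Cyto-ID High in orange, symbols for the labels F2, M3 and F6, grey lines joining libraries of 1 label, and bars for the mean ± SD of each group (n = 3). The groups stand apart for Adh7, Cbr3, Ptgr1 and Nqo1 and overlap for Gclc, Gclm, Hmox1, Txnrd1, Srxn1 and Slc7a11.

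Fold changes were fitted with limma across all genes on log2 of CPM, divided by a scaling factor per library (TMM) and with 1 CPM added, which understates the change of low genes. A gene was called at a Benjamini-Hochberg adjusted p below 0.05. Without the replicate label in the model, 14 genes were called over all cells (0.12% of 11645) and 939 had an unadjusted p under 0.05. None of the 10 members was called, and 5 had an unadjusted p under 0.05 (Nqo1, Adh7, Cbr3, Ptgr1 and Slc7a11). Their median log2 difference was 0.73, against -0.02 over all genes tested, and 9 of 10 were above 0, against 46.9% of all genes.

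The same-labelled libraries deviated together from their group means for F2 (r = 0.762) and M3 (0.578), but weakly for F6 (0.147). High F6 was nearer to Low F2 (0.175), so the pairing is uncertain for F6 and the blocked fits depend on it. With the label as a replicate block Adh7, Cbr3 and Ptgr1 were called, all higher in High. Genes called higher in that fit made up 0.541% of those tested. For Adh7 the log2 fold change was 2.74 ± 0.66 without the block (SE; limma adjusted p = 0.32) and 2.74 ± 0.17 with it (limma adjusted p = 0.0046). For Cbr3 it was 1.32 ± 0.36 (limma adjusted p = 0.42) and 1.32 ± 0.15 with the block (limma adjusted p = 0.022). For Ptgr1 it was 1.26 ± 0.35 (limma adjusted p = 0.43) and 1.26 ± 0.16 with the block (limma adjusted p = 0.031), and without pair F2 that blocked call was lost (limma adjusted p = 0.054).

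Nqo1 had a log2 fold change of 1.10 ± 0.27 and was not called without the block (limma adjusted p = 0.33) or with it (0.082). In cells with at least 2000 detected genes, which leaves 14 cells in High F6, it was 0.42 (limma adjusted p = 0.86). With 1 pair left out, which leaves 2 pairs and a p that rests on the spread pooled over genes, the blocked fit did call it (limma adjusted p = 0.041 without F2, 0.023 without M3 and 0.001 without F6). Slc7a11 had 0.90 ± 0.39 (limma adjusted p = 0.61, and 0.29 with the block). With pair M3 left out the blocked fit called Slc7a11 (limma adjusted p = 0.037), and with pair F6 left out its log2 difference was 0.33 (0.37). The other 5 members lay between -0.33 ± 0.25 (Txnrd1) and 0.57 ± 0.28 (Gclc), with limma adjusted p of 0.64 or more without the block and 0.29 or more with it. On this scale 4 members had non-overlapping groups with High higher (Nqo1, Adh7, Cbr3 and Ptgr1), against 6.62% of all genes. In 5 members (these 4 and Gclm) High was higher in 3 of 3 pairs on this scale, against 19.5% of all genes, and before scaling Srxn1 was too.

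A mean over all cells also moves with the mix of cells. Of all kept cells, proliferating-like cells made up 8.89% to 11.7% of the Low and 15.4% to 21.9% of the High libraries, suprabasal-like cells 1.09% to 3.67% and 8.98% to 14.1%, and superficial-like cells 23.2% to 35.9% and 15.6% to 21.5%. In none of the 3 classes did the shares of the groups overlap. All 10 proliferation markers were detected in every library, with a summed level of 122 to 224 CPM in Low and 271 to 368 CPM in High. The other marker sums did not separate the groups. In the order F2, M3 and F6, suprabasal markers summed to 5291, 7244 and 6448 CPM in Low and to 4573, 9995 and 5501 CPM in High. Superficial markers summed to 18037, 10472 and 27465 CPM in Low and to 9212, 16528 and 4414 CPM in High. Both sums were higher in High in pair M3 and lower in pairs F2 and F6. Within basal-like cells the log2 differences of Nqo1, Adh7 and Ptgr1 were 1.44, 2.95 and 1.65, against 1.10, 2.74 and 1.26 over all cells. That of Cbr3 was 1.21 against 1.32. The mix of classes does not enter these values, but the mix of clusters within the class does. A cluster led by Igfbp2, described below, made up a mean of 8.26% of basal-like cells in Low and 31.65% in High. How much the mix of cells adds to the differences was not tested. Shares of cells with a UMI were compared in cells thinned to 1000 UMIs each. At this depth a share largely follows the mean level, so it does not tell more cells with a transcript from more transcripts per cell.

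At that depth 24807 cells entered, and 10 to 115 cells per library were too shallow. An Adh7 UMI was found in 0.625% ± 0.428 of cells in Low and 3.79% ± 1.75 in High, a Ptgr1 UMI in 6.94% ± 2.64 and 15.3% ± 4.64, a Cbr3 UMI in 2.52% ± 0.820 and 5.64% ± 2.11, and a Nqo1 UMI in 2.47% ± 0.930 and 4.91% ± 0.367 (SD, n = 3). All 3 High shares of each of these genes were above all 3 Low shares. In each case p was 0.1 (two-sided exact permutation), which is as low as a design of 3 against 3 libraries can go. Without thinning the shares were 2.85% and 11.3% for Adh7, 29.3% and 37.6% for Ptgr1, 13.5% and 20.5% for Cbr3 and 13.7% and 18.6% for Nqo1, with exact permutation p between 0.2 and 0.7. Shares without thinning also depend on depth. The median UMIs per kept cell were 7789, 6080 and 2716 in Low and 10038, 2357 and 1940.5 in High (F2, M3 and F6). The cells of the superficial-like cluster led by Sprr2f held the least Adh7. Their thinned shares were 0.161% for Adh7, 2.77% for Ptgr1, 0.804% for Cbr3 and 0.482% for Nqo1. RNA free in the droplets was not measured, and how much of these shares it gives was not tested.

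For the other members the thinned shares in Low and High were 22.6% and 25.1% for Gclm, 1.25% and 1.75% for Gclc, 1.37% and 2.02% for Slc7a11, 2.41% and 2.47% for Hmox1 and 1.57% and 1.85% for Srxn1. Their exact permutation p values lay between 0.3 and 1.0. Txnrd1 was found in 4.82% of cells in Low and 3.36% in High, lower in 3 of 3 pairs, with an exact permutation p of 0.2.

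The layers of the epithelium carried different members. Basal-like cells (clusters led by Tmem176b, Tslp and Igfbp2), proliferating-like cells (Birc5 and Mcm3), suprabasal-like cells (Calm4) and superficial-like cells (Il33 and Sprr2f) were compared by their mean over the 6 libraries, as a description with no test, because clusters were drawn from the same cells. The Il33-led cluster held 3596 of the 6088 superficial-like cells. No superficial marker was among its 10 leading genes, and in it the superficial markers averaged a log2 fold of 1.20 and the suprabasal markers one of 0.45, so another naming rule could place it in another layer. No basal marker was among the 10 leading genes of any of the 3 basal-like clusters either. In these the basal markers averaged a log2 fold of 0.80 (Tmem176b), 0.71 (Tslp) and 0.44 (Igfbp2), with each other marker list below 0. The class with the highest mean was the same for every member in 3 other clusterings, except that Txnrd1 was tied at resolution 1.0. There it was at 57.02 CPM in both proliferating-like and superficial-like cells.

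Ptgr1 and Cbr3 were highest in suprabasal-like cells, a class made of the single cluster led by Calm4, Sprr1b and Krtdap. Ptgr1 was at 436, 432 and 325 CPM there in Low and at 553, 665 and 340 CPM in High. Its means over 6 libraries were 143 ± 82.6 CPM in proliferating-like, 98.4 ± 69.9 CPM in basal-like and 80.6 ± 31.1 CPM in superficial-like cells (SD, n = 6). In Low alone the basal-like mean of Ptgr1 (50.5 CPM) was below the superficial-like one (78.7 CPM). Cbr3 was at 113 ± 44.2 CPM in suprabasal-like, 54.0 ± 28.6 CPM in proliferating-like, 40.0 ± 26.3 CPM in basal-like and 21.1 ± 10.8 CPM in superficial-like cells. For both genes the suprabasal-like level was above that of every other class in 6 of 6 libraries. The proliferating-like level was above the basal-like one in 6 of 6. In Low F6 the suprabasal-like levels rest on 29 cells, with 36 Ptgr1, 5 Cbr3 and 5 Srxn1 UMIs. Srxn1 had its highest mean in the same class, at 30.6 ± 8.54 CPM, above the basal-like (13.2 ± 3.89 CPM) and proliferating-like (16.6 ± 2.60 CPM) levels in 6 of 6 libraries and above the superficial-like level (21.6 ± 5.69 CPM) in 5 of 6.

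Gclm and Slc7a11 were highest in proliferating-like cells and lowest in superficial-like cells. Gclm was at 581 ± 185 CPM in proliferating-like and 478 ± 193 CPM in basal-like cells, at 143 ± 36.4 CPM in suprabasal-like and 64.5 ± 23.7 CPM in superficial-like cells (SD, n = 6). The order of these 4 classes was the same in 6 of 6 libraries. Slc7a11 was at 29.3 ± 12.5, 18.1 ± 9.21, 22.0 ± 13.3 and 7.27 ± 4.54 CPM in the same order of classes. It was higher in proliferating-like than in basal-like cells and higher in basal-like than in superficial-like cells in 6 of 6 libraries.

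Nqo1 and Adh7 were low in superficial-like cells. Nqo1 was at 65.7 ± 12.2 CPM in suprabasal-like and 62.3 ± 19.5 CPM in proliferating-like cells, which did not differ beyond their spread, at 36.8 ± 18.7 CPM in basal-like and at 20.2 ± 9.74 CPM in superficial-like cells (SD, n = 6). Adh7 was at 48.2 ± 53.9 CPM in proliferating-like, 34.3 ± 36.3 CPM in basal-like, 26.2 ± 21.7 CPM in suprabasal-like and 5.67 ± 7.31 CPM in superficial-like cells. In Low its order differed, at 14.5 ± 14.8 CPM in suprabasal-like, 10.4 ± 9.28 CPM in proliferating-like and 8.81 ± 6.78 CPM in basal-like cells (SD, n = 3). Its SD within a class was above its mean in 3 of the 4 classes, and the Low and High libraries did not overlap in basal-like and proliferating-like cells but did in the other 2 classes. Gclc was at 19.9 ± 3.54 CPM in proliferating-like, 18.6 ± 5.39 CPM in suprabasal-like, 13.6 ± 2.66 CPM in basal-like and 10.6 ± 5.42 CPM in superficial-like cells, and was above the basal-like level in proliferating-like cells of 6 of 6 libraries. Over single clusters the highest Gclc mean, 27.5 CPM, was in the unnamed cluster led by Krt12, outside these classes. There Low F6 was at 7.94 CPM, from 7 UMIs.

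Hmox1 and Txnrd1 followed another order. Hmox1 was at 29.7 ± 11.6 CPM in superficial-like, 28.0 ± 4.67 CPM in basal-like, 24.2 ± 11.1 CPM in suprabasal-like and 18.9 ± 5.16 CPM in proliferating-like cells (SD, n = 6), and the basal-like level was above the proliferating-like one in 6 of 6 libraries. Txnrd1 was at 57.4 ± 8.41 CPM in proliferating-like, 51.3 ± 24.7 CPM in superficial-like, 44.5 ± 6.64 CPM in basal-like and 21.1 ± 13.0 CPM in suprabasal-like cells. In Low alone its superficial-like mean (64.3 CPM) was above the proliferating-like one (56.7 CPM). The superficial-like class joined clusters that differed in both genes. A cluster led by Ifit3b, where both means were higher, had 1 cell in 2 of the libraries and was left out. In the cluster led by Sprr2f, Txnrd1 was at 92.9 CPM and Hmox1 at 48.1 CPM, the highest means of the 9 clusters compared, and in the cluster led by Il33 they were at 20.9 and 16.0 CPM. In the Sprr2f cluster Txnrd1 was at 138, 92.5 and 130 CPM in Low and at 98.4, 62.8 and 36.6 CPM in High, lower in High in 3 of 3 pairs, whereas Gclm, Nqo1, Adh7, Ptgr1, Gclc and Slc7a11 had their lowest means of the 9 clusters there, between 0.807 and 41.3 CPM.

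**Figure D2:**
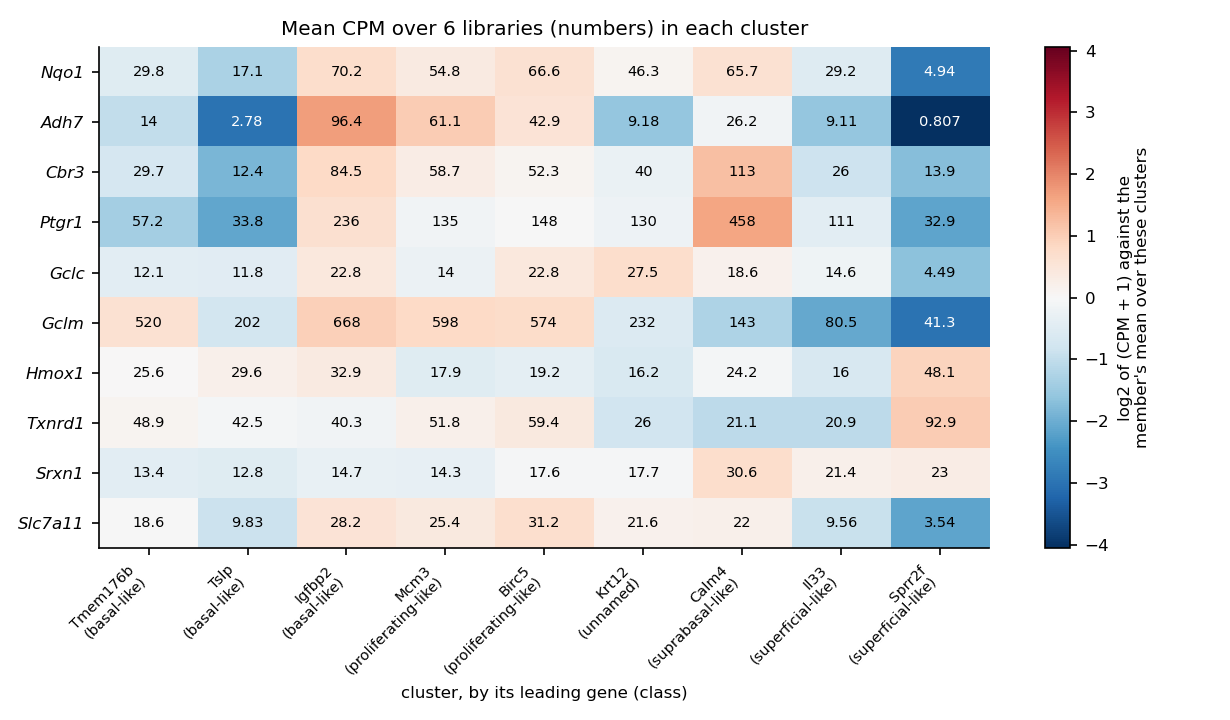
Level of each member (rows) in each cluster (columns, named by the leading gene and the marker class), with the mean CPM over 6 libraries as numbers and its log2 ratio to the mean of the member over these clusters as colour. Ptgr1, Cbr3 and Srxn1 peak in the suprabasal-like Calm4 cluster, Txnrd1 and Hmox1 in the superficial-like Sprr2f cluster, and Adh7, Nqo1 and Gclm in the basal-like Igfbp2 cluster. Gclc peaks in the unnamed Krt12 cluster. The Ifit3b-led cluster is not drawn.

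Within basal-like cells Nqo1 joined the members called with the replicate block. Nqo1 was at 19.2, 25.6 and 18.2 CPM in Low and at 41.8, 62.9 and 52.8 CPM in High in the order F2, M3 and F6. Adh7 was at 10.6, 14.5 and 1.30 CPM in Low and at 66.2, 92.0 and 21.1 CPM in High, and Ptgr1 at 48.7, 71.3 and 31.5 CPM in Low and at 119, 226 and 93.7 CPM in High. In all 3 genes the lowest High library was above the highest Low library. Cbr3 was at 21.6, 32.0 and 19.5 CPM in Low and at 44.7, 90.5 and 31.8 CPM in High, so that before scaling the Low M3 and High F6 libraries were level.

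In the fit without the block 29 of 11620 genes were called in basal-like cells (0.25%), with 752 at an unadjusted p under 0.05. No member was among the 29, and 6 members had an unadjusted p under 0.05. The limma adjusted p was 0.064 for Nqo1 (1.44 ± 0.25 on the log2 scale, SE), 0.18 for Ptgr1 (1.65 ± 0.36), 0.2 for Adh7 (2.95 ± 0.67) and 0.45 for Cbr3 (1.21 ± 0.35, and 0.77 without the High M3 library). With the replicate block 4 members were called higher, against 0.749% of genes: Adh7 (limma adjusted p = 0.00053), Ptgr1 (0.0035), Nqo1 (0.0085) and Cbr3 (0.03). Groups did not overlap, with High higher, in 6 members (these 4, Gclc and Hmox1, on the scaled values) and in 6.45% of all genes. Before scaling Cbr3 and Hmox1 overlapped. On the scaled values High was higher in 3 of 3 pairs in 9 members, all but Txnrd1, against 18.5% of all genes. Before scaling this held for 7 of them, since Gclm in pair F6 and Srxn1 in pair F2 were level or slightly lower in High. The members' median log2 difference was 0.78, against -0.01 over all genes tested.

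The remaining basal-like values were less even. Slc7a11 was at 11.7, 18.9 and 8.09 CPM in Low and at 16.3, 19.1 and 34.8 CPM in High (0.97 ± 0.37; limma adjusted p = 0.7, and 0.3 with the block). The blocked fit called it without pair M3 (limma adjusted p = 0.0018), and without pair F6 its log2 difference was 0.35 (0.48). Gclm was at 388, 684 and 321 CPM in Low and at 397, 759 and 320 CPM in High, and its log2 difference was 0.22 ± 0.37. Gclc (0.59 ± 0.22), Hmox1 (0.43 ± 0.21), Srxn1 (0.37 ± 0.29) and Txnrd1 (0.00 ± 0.21) had limma adjusted p of 0.7 or more without the block and 0.28 or more with it.

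In proliferating-like cells Adh7 was at 13.3 and 17.9 CPM in Low F2 and M3 and at 116, 118 and 24.2 CPM in High. No Adh7 UMI was found in the 237 cells of Low F6, where 3 UMIs would be 3.99 CPM. Ptgr1 was at 90.2, 112 and 39.0 CPM in Low and at 210, 266 and 142 CPM in High, and Cbr3 at 33.3, 43.2 and 20.3 CPM and at 78.9, 96.2 and 51.8 CPM. Each High library of these 3 genes was above each Low library. Nqo1 was at 47.4, 52.7 and 35.4 CPM in Low and at 79.1, 77.9 and 80.9 CPM in High, which made it the most even of the 4 across High libraries.

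There, 20 of 11651 genes were called without the block (0.172%; 909 at an unadjusted p under 0.05) and none was a member, although 5 members had an unadjusted p under 0.05. With the block, which called 0.163% of genes higher, 3 members were called, namely Adh7 (3.62 ± 0.38, SE; limma adjusted p = 0.021), Ptgr1 (1.62 ± 0.20; 0.037) and Cbr3 (1.41 ± 0.18; 0.039). Their limma adjusted p without the block were 0.26, 0.16 and 0.15. The fitted value of Adh7 depends on the library at 0, Low F6, and is no bound; without that library it was 2.31. Nqo1 differed by 1.01 ± 0.23 (limma adjusted p = 0.2, and 0.14 with the block), and the blocked fit called it without pair F6 (0.79 on the log2 scale; limma adjusted p = 0.0009). Groups did not overlap, with High higher, in 7 members, against 7.28% of all genes, and 8 members (all but Gclc and Txnrd1) were higher in 3 of 3 pairs, against 19.5%. The 7 were Nqo1, Adh7, Cbr3, Ptgr1, Hmox1, Srxn1 and Slc7a11, on the scaled values. Before scaling Hmox1 overlapped, at 16.8, 18.6 and 13.3 CPM in Low and at 22.3, 27.3 and 15.2 CPM in High.

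In superficial-like cells the members did not separate the groups. Ptgr1 was at 45.9, 114 and 76.1 CPM in Low and at 45.5, 115 and 86.7 CPM in High, and the labels differed more than the groups. Nqo1 was at 13.2, 25.7 and 16.3 CPM in Low and at 11.5, 17.0 and 37.3 CPM in High, lower in High in pairs F2 and M3 and higher in pair F6. Txnrd1 was at 85.7, 42.9 and 64.3 CPM in Low and at 63.3, 35.4 and 16.3 CPM in High, with a log2 difference of -0.91 ± 0.44 (SE; limma adjusted p = 1.0, and 0.8 with the block).

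Of 10786 genes 1 was called there without the block (0.00927%; 195 at an unadjusted p under 0.05), and 0.0278% were called higher with it. No member was called in either fit. The members with an unadjusted p under 0.05 were 0 without the block and 2 with it (Cbr3 and Txnrd1), against 610 of all genes with it. No member had non-overlapping groups with High higher, against 2.93% of all genes, and 2 members (Cbr3 and Gclc) were higher in 3 of 3 pairs, against 13% of all genes. The median log2 difference of the members was 0.07, against -0.04 over all genes tested.

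The difference between the classes was itself fitted, as the High minus Low difference in superficial-like minus that in basal-like cells. It was -1.62 ± 0.38 for Ptgr1, -1.34 ± 0.32 for Nqo1, -2.17 ± 0.80 for Adh7 and -0.67 ± 0.28 for Cbr3 (SE). None passed the threshold, with limma adjusted p of 0.52, 0.52, 0.64 and 0.67, and of 0.25, 0.35, 0.4 and 0.43 with the replicate block. Among all 10399 genes 0 passed (0%) in either fit, while 774 had an unadjusted p under 0.05 without the block and 1067 with it, and these 4 members were among both.

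Suprabasal-like cells were too few for the planned fit, with 29 cells in Low F6. In a fit added after the data were seen, which accepted 25 cells, the log2 differences were 2.30 ± 1.08 for Adh7, 0.97 ± 0.35 for Cbr3, 0.60 ± 0.25 for Nqo1 and 0.58 ± 0.31 for Ptgr1 (SE; limma adjusted p = 0.72 for each), against a median of 0.22 over all genes. No member was called, against 2 of 10515 genes without the block and 0 with it. The members with an unadjusted p under 0.05 were 2 without the block and 4 with it, against 667 and 851 of all genes. No Adh7 UMI was found in the 29 Low F6 cells, where 3 UMIs would be 25.1 CPM. Mean levels of Txnrd1 (27.9 against 14.3 CPM), Gclc (21.35 against 15.8 CPM) and Srxn1 (35.3 against 25.9 CPM) were lower in High than in Low. Each of these rests on 7 or fewer UMIs in Low F6. The mean levels of Gclm (140 against 146.5 CPM), Hmox1 (20.9 against 27.6 CPM) and Slc7a11 (15.3 against 28.7 CPM) were higher in High. Each was higher in 2 of 3 pairs. In Low F6 these levels rest on 11 Gclm, 1 Hmox1 and 0 Slc7a11 UMIs.

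**Figure D3:**
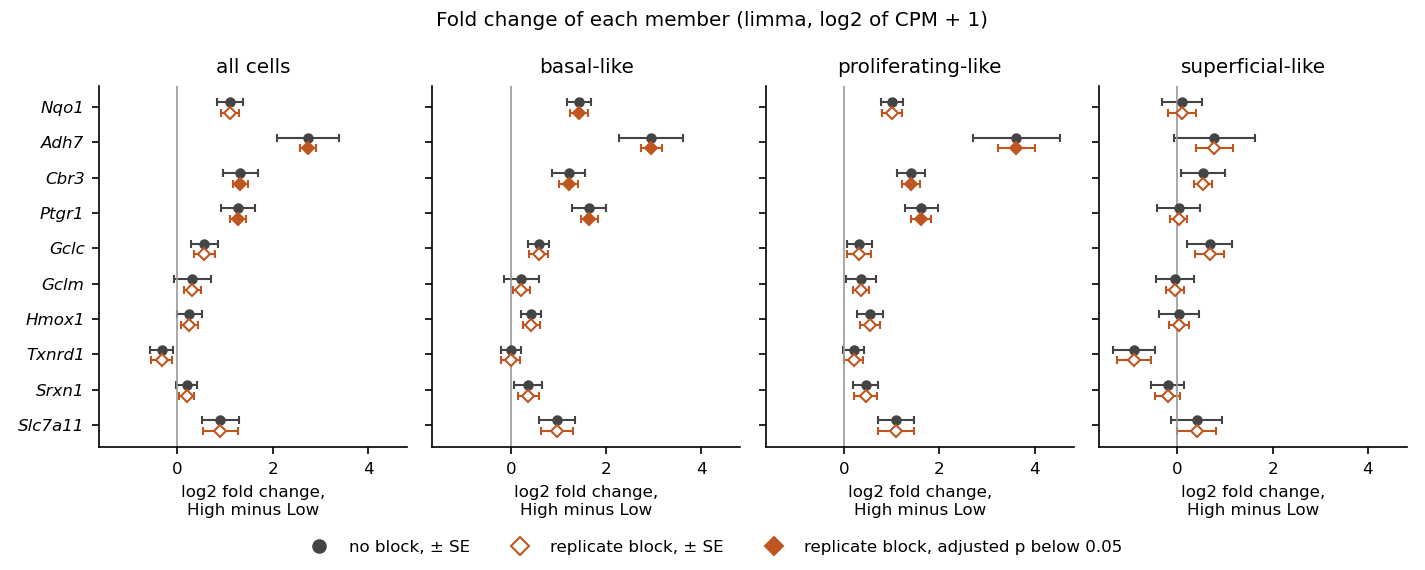
Log2 fold change, Cyto-ID High minus Cyto-ID Low, of each member over all cells and in basal-like, proliferating-like and superficial-like cells, for the limma fit without the replicate block (circles) and with it (diamonds, filled where the gene was called), with SE as bars. Adh7, Ptgr1 and Cbr3 lie between 1.21 and 3.62 over all cells and in the basal-like and proliferating-like classes, and between 0.03 and 0.78 in superficial-like cells.

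The basal-like differences of Nqo1, Adh7, Cbr3 and Ptgr1 were smaller when a single cluster was left out. This cluster, led by Igfbp2, Mt3, Adh7 and Ces1h, held 2097 cells and made up 9.79%, 10.5% and 4.48% of basal-like cells in Low and 30.6%, 33.9% and 30.5% in High. Adh7 is thus among its leading genes even though the 10 members were left out of the clustering, and its share and levels are a description. Inside it Nqo1 was at 44.9, 46.1 and 54.9 CPM in Low and at 87.0, 104 and 84.1 CPM in High. Ptgr1 was at 164, 193 and 82.8 CPM in Low and at 305, 478 and 191 CPM in High. Both genes were higher in High in 3 of 3 pairs within the cluster, and Nqo1 did not overlap between groups while Ptgr1 did. Over all basal-like cells, on the scaled values, 18.5% of all genes were higher in 3 of 3 pairs. There 6.45% had non-overlapping groups with High higher. These shares were not counted within the cluster or in the other basal-like cells.

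Adh7 was at 84.6 and 41.6 CPM in Low F2 and M3 of this cluster and at 193, 206 and 53.8 CPM in High, and no Adh7 UMI was found in the 48 Low F6 cells, where 3 UMIs would be 30.5 CPM. Cbr3 was at 64.9, 71.6 and 35.6 CPM in Low and at 103, 171 and 62.0 CPM in High. Txnrd1 went the other way, at 58.2, 39.7 and 45.3 CPM in Low and at 43.7, 37.5 and 17.5 CPM in High. In Low F6 the levels in the cluster rest on 5 Nqo1, 8 Ptgr1, 4 Cbr3 and 4 Txnrd1 UMIs. In the other basal-like cells the mean levels of Nqo1, Adh7, Cbr3 and Ptgr1 were lower than in the cluster in both groups. Adh7 was at 2.59, 11.3 and 1.36 CPM in Low and at 10.4, 33.9 and 6.72 CPM in High. Nqo1 was at 16.4, 23.2 and 16.5 CPM and at 21.9, 41.8 and 39.1 CPM, and both were higher in High in 3 of 3 pairs. Ptgr1 was at 36.26, 57.05 and 29.13 CPM in Low and at 36.92, 97.21 and 50.95 CPM in High, level in pair F2. Cbr3 was at 16.85, 27.38 and 18.78 CPM in Low and at 19.1, 49.5 and 18.53 CPM in High, level in pair F6. In the Tslp-led cluster Ptgr1 was lower in High in 3 of 3 pairs, and Cbr3 was higher in 1, Nqo1 in 2 and Adh7 in 3. There Adh7 had at most 1 UMI in each Low library.

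Without the Igfbp2-led cluster the basal-like log2 differences fell short of those with it, at 1.72 ± 0.65 for Adh7, 0.91 ± 0.32 for Nqo1, 0.63 for Ptgr1 and 0.43 for Cbr3. In this alternative, chosen after the data were seen, 2 genes were called higher (0.0173% of 11593) and none was a member (limma adjusted p = 1.0 for these 4). An unadjusted p under 0.05 was found for 3 members and for 307 of all genes. With the block 0.0776% of genes were called higher, and of the members Adh7 alone (limma adjusted p = 0.033), while Nqo1, Ptgr1 and Cbr3 had 0.38, 0.71 and 0.72. The share of the cluster and the level inside it both moved with the groups, and how much each adds to the basal-like difference was not tested.

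**Figure D4:**
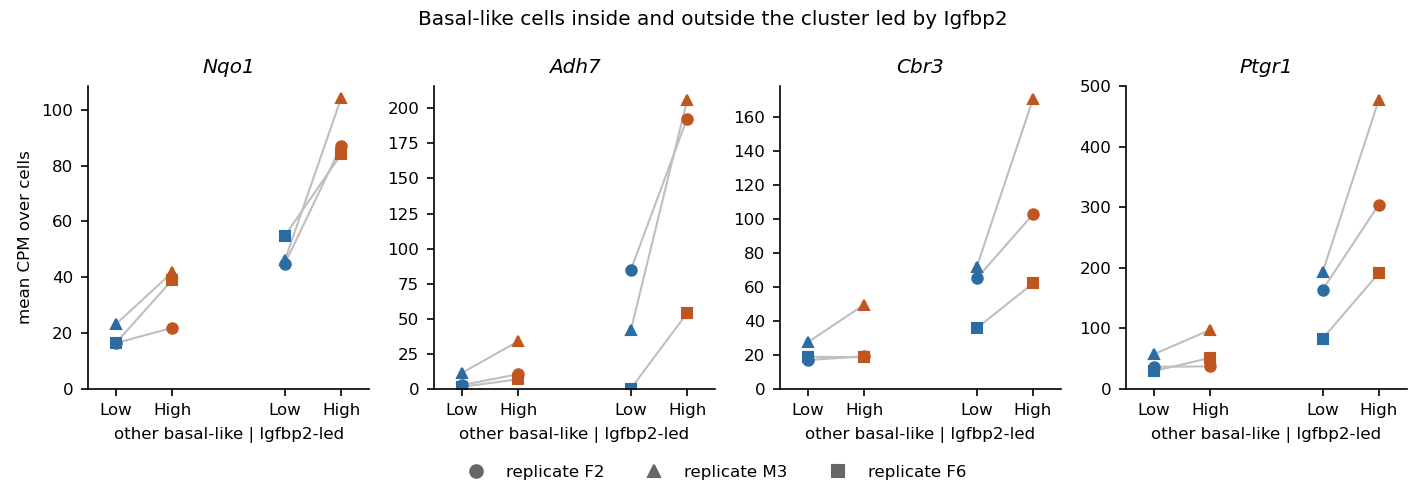
Levels of Nqo1, Adh7, Cbr3 and Ptgr1 (CPM) in the basal-like cluster led by Igfbp2 and in all other basal-like cells, in every library, with Cyto-ID Low in blue and Cyto-ID High in orange and symbols for the labels. The cluster lies above the other basal-like cells in 6 of 6 libraries for Nqo1, Cbr3 and Ptgr1. Nqo1 is at 44.9 to 104 CPM inside it and at 16.4 to 41.8 CPM outside it. In Low F6 the cluster holds 48 cells, with 5 Nqo1, 4 Cbr3 and 8 Ptgr1 UMIs.

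Which members moved together was described by Pearson r between their log2 levels over 18 profiles (6 libraries by the basal-like, proliferating-like and superficial-like classes). Suprabasal-like cells, where Nqo1, Ptgr1, Cbr3 and Srxn1 had their highest class means, did not enter. The profiles of a library share its depth and those of a class its cells, so r is given without a p. The 6 pairs among Nqo1, Adh7, Cbr3 and Ptgr1 had r between 0.70 and 0.916, and the highest of all 45 pairs was Adh7 with Cbr3 (0.916). The median over the 45 pairs was 0.393, and 34 were above 0. With the mean of each class subtracted, so that the class means no longer enter, the 4 genes had r between 0.642 and 0.95, with Cbr3 and Ptgr1 highest, and the median of all pairs was 0.517. These profiles still hold the difference between High and Low, so the r of genes that share it restates it in part. In basal-like profiles alone (n = 6) the 4 genes had r between 0.815 and 0.972. There, Hmox1 had r of 0.954 with Adh7, 0.899 with Ptgr1 and 0.849 with Nqo1, Gclc had 0.897 with Nqo1 and Srxn1 had 0.811 with Adh7, so that high values were not limited to the 4.

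Over the 18 profiles Slc7a11 had r of 0.883 with Nqo1, 0.856 with Gclc, 0.814 with Cbr3, 0.784 with Gclm, 0.732 with Adh7 and 0.655 with Ptgr1. Txnrd1 had r between -0.274 and 0.335 to the other 9 members, and after class means were subtracted its r with Gclc was the lowest of all pairs (-0.625). Nqo1 was nearer to Slc7a11 and to Gclc (0.799) than to Adh7 (0.70). Hmox1 and Srxn1 had an r of 0.472 with each other, and Gclm with Srxn1 had the lowest r before subtraction (-0.318). After subtraction Hmox1 and Srxn1 were nearer to Adh7 and to each other. The r was 0.726 for Srxn1 with Adh7, 0.641 for Hmox1 with Adh7 and 0.71 for Hmox1 with Srxn1. Clusters with at least 50 cells in every library gave 42 profiles of cluster and library. The Igfbp2-led, Calm4-led and Ifit3b-led clusters did not enter, with 48, 29 and 1 cells in Low F6. The Igfbp2-led cluster had the highest means of Adh7, Nqo1 and Gclm, and the Calm4-led cluster those of Ptgr1, Cbr3 and Srxn1. Over the 42 profiles Txnrd1 had its highest r with Hmox1 (0.57, and 0.217 with cluster means subtracted). The lowest pair was Nqo1 with Hmox1 (-0.582, and 0.198 with cluster means subtracted).

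**Figure D5:**
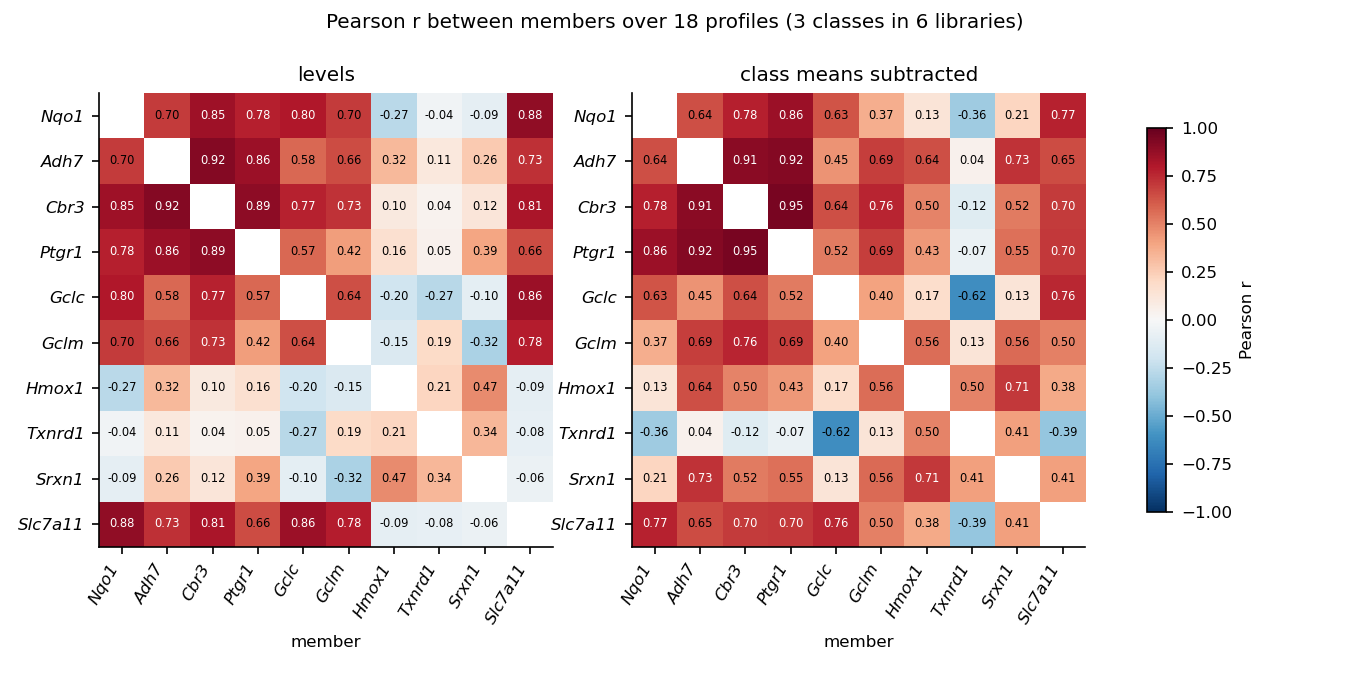
Pearson r between the log2 levels of each pair of members over 18 profiles of library and class, as measured (left) and with class means subtracted (right), on a colour scale from -1 to 1. The pairs among Adh7, Cbr3, Ptgr1 and Nqo1 have r of at least 0.70 on the left and 0.642 on the right, where the difference between High and Low still enters, and Txnrd1 has its lowest value, -0.625, with Gclc on the right.

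Single cells gave a further view. Among basal-like cells thinned to 1000 UMIs, cells with an Adh7 UMI carried a Ptgr1 UMI in 27.3% of 99 cells in High F2, 38.5% of 117 cells in High M3, 22.2% of 36 cells in High F6 and 19.2% of 26 cells in Low M3. Cells without an Adh7 UMI carried one in 8.69%, 15.5%, 9.18% and 6.77% of those libraries. The share was higher in 4 of the 4 libraries that had at least 20 Adh7 cells. For Cbr3 it was higher in 3 of the 4, with 15.2% against 3.33% in High F2, and for Nqo1 in 2 of the 4. Cells with a Ptgr1 UMI carried a Nqo1 UMI and a Gclm UMI more often than cells without one in 6 of 6 libraries. The cluster led by Igfbp2 enters these shares. Within it, cells with an Adh7 UMI carried a Ptgr1 UMI in 31.4% against 23.2% in High F2, 45.4% against 30.2% in High M3 and 27.6% against 18.1% in High F6, and cells with a Ptgr1 UMI carried a Nqo1 UMI more often in 2 of 4 libraries and a Gclm UMI in 2 of 4. In basal-like cells outside the cluster, cells with a Ptgr1 UMI carried a Nqo1 UMI and a Gclm UMI more often in 4 of 6 libraries each. An Adh7 UMI and a Cbr3 UMI were more frequent in them in 2 of 6 libraries each, against 5 of 6 each with the cluster kept in. High M3 was the library with at least 20 Adh7 cells outside the cluster, and 19.4% of its 31 carried a Ptgr1 UMI, against 9.03% of cells without an Adh7 UMI.

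The genes nearest to each member over the 18 profiles were sought among 9004 genes whose mean reached 5 CPM. The nearest were Rdh12, Cd5 and Otop3 for Adh7 (highest r 0.96), with Cbr3 ranked 4 and Ptgr1 ranked 21. Those of Ptgr1 were Aldh3a1, Cisd1 and Gsta3 (0.953), with Cbr3 ranked 4 and Adh7 ranked 8. For Cbr3 they were Psmb3, Tmem14c and Kctd17 (0.953), with Adh7 ranked 12 and Ptgr1 ranked 29. For Nqo1 they were Letm1, Atp5g1 and Atp5h (0.929), with Slc7a11 ranked 22, Cbr3 ranked 89, Ptgr1 ranked 352 and Adh7 ranked 1120. Slc7a11 was nearest to Ppia, Prdx1 and Rnf7 (0.962), Gclc to Prdx1, Nfyc and Zdhhc3 (0.864) and Gclm to Reep5, Atp5a1 and Impdh2 (0.99). For Slc7a11, Nqo1 ranked 56, Gclc 140, Cbr3 369, Gclm 595, Adh7 1150 and Ptgr1 2071. For Gclm, Slc7a11 ranked 2330. Many other genes thus had a higher r than some of these pairs. Hmox1 was nearest to Tmem59, Foxq1 and Tmem203 (0.811), Txnrd1 to Pithd1, Helb and Dnajc21 (0.866) and Srxn1 to Ormdl2, Dnajb11 and Mpdu1 (0.873).

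No gene of a wider set of NRF2 targets was called. Of 22 further targets, among them the NADPH producers G6pdx and Pgd, the peroxidase Prdx1 and the ferritin chain Fth1, 0 were called in any class or over all cells, with or without the block (limma). Over all cells 1 had an unadjusted p under 0.05 without the block and 3 with it, against 939 and 1884 of 11645 genes. The log2 difference was above 0 in 10 of 22, against 46.9% of all genes, with a median of -0.06 against -0.02. The 3 with the smallest p were Akr1b8, an aldo-keto reductase (-0.73 ± 0.25, SE; limma adjusted p = 0.54), the thioredoxin gene Txn1 (0.85 ± 0.40; 0.63) and the aldehyde oxidase Aox1 (-0.47 ± 0.27; 0.68). Akr1b8 was at 159, 138 and 133 CPM in Low and at 86.0, 104 and 58.6 CPM in High, lower in High with no overlap. In basal-like cells 15 of the 22 were above 0, against 48.8% of all genes, with a median of 0.17 against -0.01, and Akr1b8 (-0.61 ± 0.21; limma adjusted p = 0.64), Pgd (0.51 ± 0.21; 0.75) and G6pdx (0.41 ± 0.22; 0.79) had the smallest p. In proliferating-like cells 17 of 21 were above 0, against 52.2% of all genes (median 0.21 against 0.02), and in superficial-like cells 11 of 21, against 45.3% (0.01 against -0.04).

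The genes of the pathway's own control were also not called. Nfe2l2, which encodes NRF2, was at 166, 202 and 195 CPM in Low and at 225, 193 and 293 CPM in High (0.40 ± 0.25, SE, on the scaled values; limma adjusted p = 0.7). These CPM, which are not scaled, overlapped between the groups. The log2 differences were -0.04 for Keap1, 0.00 for Cul3, -0.14 for the repressor Bach1, -0.17 for Mafg, 0.13 for Mafk, -0.45 for Maff and -0.25 for the related factor Nfe2l1. Of these 8 genes 0 were called by limma over all cells in either fit. The number with an unadjusted p under 0.05 was 0 without the block and 1 with it (Maff), against 939 and 1884 of 11645 genes. The level of an mRNA says nothing of the amount of NRF2 protein in the nucleus.

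Glutathione S-transferases, the other large group of NRF2 targets, are given for comparison. Of 21 tested over all cells 0 were called without the block and 5 with it, where 0.541% of all genes were called higher. With the block 6 were called in basal-like cells (0.749% of all genes) and 2 in proliferating-like cells (0.163%). Without it 3 were called in proliferating-like cells (0.172%), and in superficial-like cells 0 were called in either fit. Every call was higher in High. In basal-like cells without the block 3 were called, against 0.25% of all genes. These were Gsta1 (3.50 ± 0.46, SE; limma adjusted p = 0.013), Gsta2 (3.47 ± 0.44; 0.012) and Gstm1 (2.06 ± 0.33; 0.042), which conjugate glutathione to electrophiles and whose near-identical copies can share reads. Slc7a11 is also a known target of ATF4, the factor of amino acid stress. Of 12 ATF4-related genes 0 were called over all cells without the block. The blocked fit, which called 0.541% of genes higher, called 2 serine synthesis genes higher in High. They were Phgdh (1.43, limma adjusted p = 0.019) and Psat1 (1.11, limma adjusted p = 0.047). Slc3a2, the partner chain of the cystine exchanger, differed by -0.23 and Atf4 by 0.04 over all cells, and neither was called.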

How the data were processed

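Droplet 3′ single-cell libraries of 3 Cyto-ID Low and 3 Cyto-ID High organoid cultures were analysed from the tables the authors deposited. Per the submitters' processing notes, reads were processed with Cell Ranger 6.0.0 and Seurat 4 on mm10 (GRCm38). The counting rule and any removal of doublets are not given in the sources used here, and no doublet caller was run. The deposited values are on a natural log scale, ln(1 + 10000 × UMIs / total of the cell), which was read from the values. The UMIs recovered from them were whole for 100% of values within 0.001. Tests were made with limma on log values, and no count model was fitted.

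Cells with at least 500 detected genes were kept. Clusters were drawn with Seurat 5.3.0 in R 4.3.3 (2000 variable genes, 30 principal components, reciprocal integration over libraries, resolution 0.5). The members, the wider NRF2 targets, the regulators and the glutathione S-transferases were first removed from the clustering features. The ATF4-related genes were not removed. Each cluster was given the class whose markers had the greatest average log2 fold, and the rule for leaving a cluster unnamed was chosen after the data were seen. CPM were averaged over the cells of a library. Levels in the text are these averages before scaling. For the tests they were divided by TMM factors (30% of log ratios and 5% of levels trimmed) and analysed as log2(CPM + 1) in limma 3.58.1 with its trend option, for genes that reached 1 CPM in 3 or more libraries and classes with at least 50 cells per library. Shares of cells were compared with SciPy 1.17.1 in Python 3.11.15 by a two-sided exact permutation test. UMI floors cover counting error only.

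Deviations from the group means correlated between same-labelled libraries at 0.762 (F2), 0.578 (M3) and 0.147 (F6) over all cells, at 0.632, 0.591 and 0.149 in basal-like, 0.481, 0.436 and 0.102 in proliferating-like and 0.763, 0.578 and 0.238 in superficial-like cells. All were above 0.1, so the labels were taken to pair the libraries. However, High F6 correlated more with Low F2 than with Low F6 outside superficial-like cells. Its r with Low F2 was 0.175 over all cells, 0.250 in basal-like and 0.236 in proliferating-like cells. The fit with the label as a replicate block is given beside the fit without it.

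The 10 members, the 22 wider NRF2 targets, the 8 regulators, the 23 glutathione S-transferases and the 12 ATF4-related genes were chosen with earlier results of these data known. All members and regulators are named. Wider targets and transferases past the threshold are named by smallest p, or, where none passed, the 3 wider targets with the smallest p, and all ATF4-related genes past it. Alternatives were the replicate block, each library left out, no filter, a pseudocount of 0.1 CPM, plain CPM, summed UMIs, other clusterings, at least 2000 detected genes and other thinning.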

Additional observations from a re-analysis of the deposited data

How the results depend on the processing

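Of 700 alternative values of the members' log2 differences (40 results), 612 kept their direction and side of the threshold. Another 57 were newly past it, all 57 with the replicate block. The remaining 31 changed direction or rounded to 0, with 0 of these called. The cause of each shift below was not tested. Genes called over all cells numbered 14, and 70 with the replicate block (63 higher), 6 to 23 with 1 library left out, 0 with no filter on low values, 5 with a pseudocount of 0.1 CPM, 26 on plain CPM, 0 in cells with at least 2000 detected genes (14 cells in High F6) and 8 with equal weight per class, an alternative added after the data were seen. In basal-like cells 29 became 105 with the replicate block, 7 to 37 with 1 library left out, 0 with no filter, 17 with the smaller pseudocount, 2 without the Igfbp2-led cluster and 9 without it with the block. In proliferating-like cells 20 became 1 to 51, 0 with no filter, 6 with the smaller pseudocount and 10 on summed UMIs, and the block gave 24. In superficial-like cells 1 became 4 with the block and 0 to 1 with 1 library left out, and 0 with no filter or the smaller pseudocount. The 0 genes of the difference between classes did not move in 9 alternatives. That difference for suprabasal-like cells was not run, with 29 cells in 1 library.

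Plain CPM moved the median of all genes from -0.02 to -0.10 over all cells, from -0.01 to -0.15 in basal-like and from 0.02 to -0.15 in proliferating-like cells. With the block, plain CPM called 98 higher of 185 over all cells against 63 of 70, 78 of 118 against 87 of 105 in basal-like and 25 of 47 against 19 of 24 in proliferating-like cells. It called Nqo1 over all cells (limma adjusted p = 0.043) and kept the other members' calls.

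No member that was called changed direction. Over all cells Srxn1 was at -1.26 with at least 2000 detected genes, and Gclm at -0.014 to 0.682 with 1 library left out. In basal-like cells Gclm was at -0.108 without the Igfbp2-led cluster, in both fits, and at -0.171 to 0.533 with 1 library left out. Txnrd1 there was at -0.155 on plain CPM, also with the block, -0.025 on summed UMIs, -0.008 with the listed genes kept in the clustering, -0.003 at resolutions 0.3 and 1.0, -0.152 to 0.082 with 1 library left out and -0.214 to 0.122 with a pair left out of the blocked fit. In superficial-like cells Gclm was at -0.00 on summed UMIs, with its direction unchanged before rounding. With the listed genes kept in the clustering, Ptgr1 there was at -0.006 and Hmox1 at -0.002. With 1 library left out the ranges there were -0.336 to 0.519 (Nqo1), -0.335 to 0.471 (Ptgr1), -0.438 to 0.261 (Gclm), -0.266 to 0.478 (Hmox1), -0.215 to 1.497 (Adh7), -0.091 to 1.07 (Slc7a11) and -0.489 to 0.180 (Srxn1), and for the difference between classes -0.261 to 0.545 (Gclc) and -0.598 to 0.051 (Hmox1). The High minus Low share of cells was -2.68 percentage points for Gclm, -0.562 for Hmox1 and -1.27 for Srxn1 without thinning, and -1.22 to 7.28 for Gclm and -0.280 to 0.360 for Hmox1 with 1 library left out. The median r of the members was 0.393, 0.609 in basal-like profiles and 0.517 with class means subtracted. Over cluster profiles it was 0.344, and 0.404 with cluster means subtracted.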
